A study of Mus musculus with 4 samples.

Results

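The genes of the respiratory chain were described across libraries from cultured mouse cortex in which CTCF, a DNA-binding organizer of chromatin loops, was knocked down. They were chosen by gene symbol, as protein-coding genes of complexes I to V that matched fixed name patterns. No measured value entered the patterns, although they were set with earlier results of these data known. The patterns found 88 of the 37437 genes in the files, 13 encoded by mitochondrial DNA and 75 by nuclear chromosomes. Complex I had 43 members, complex II 4, complex III 9, complex IV 13 and complex V 19. A second annotated gene with the symbol Atp5o had no value and is not analysed here. Primary cultures were infected with adeno-associated virus carrying a knockdown of CTCF (shCTCF) or of lacZ (shLAC), a bacterial gene, so that both groups carried virus. Total RNA was sequenced in 2 libraries per group. The labels give no strain, age, hairpin sequence or time after infection, and do not say whether the 2 libraries of a group came from separate cultures. The p-values therefore rest on how far these libraries differ, and that spread may be technical.

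Complexes I, III and IV pass electrons along the inner mitochondrial membrane and pump protons, complex II feeds electrons in from succinate without pumping, and complex V, the ATP synthase, uses the proton gradient to make ATP. Complex II is built from nuclear genes alone, whereas the other complexes combine subunits translated inside the mitochondrion with nuclear-encoded subunits that are imported. The mitochondrial mRNAs are cut from long transcripts that cover most of each strand of the circular genome, so their levels are not independent of one another. Neurons depend on this system for the ATP that drives ion pumping and synaptic transmission.

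The files held TPM, a share of transcripts corrected for gene length and set to a fixed total. Sequencing depth cannot be read from it, and intervals for counting error could not be formed. Each library summed to 1000000 or 1000001 TPM. In shLAC replicate 2, predicted protein-coding loci took 17.1% of the total. The other control library had 0.523%, and the shCTCF libraries 1.26% and 1.72%. The noncoding RNA genes Rn7s1, Rn7s2 and Rn7sk together took 40.8% and 30.9% in shLAC replicates 1 and 2. In the shCTCF libraries they took 37.3% and 38.6%. Since TPM has a fixed total, a larger share in any such loci leaves less for every other gene. Each library was therefore divided by a size factor, the median ratio of its genes to their geometric mean over libraries (1.05 and 0.831 in shLAC, 1.10 and 1.05 in shCTCF), and values so divided are called scaled TPM. As deposited, the median log2 fold change of all 11143 tested genes was 0.17, and after scaling it was -0.00. The targeted gene, Ctcf, was at 8.11 and 8.80 scaled TPM in shLAC and at 3.25 and 3.40 in shCTCF. The pan-neuronal markers Map2, Snap25, Tubb3, Syt1 and Rbfox3 summed to between 912 and 942 scaled TPM in every library. Microglial markers summed to at most 0.806 and endothelial markers to at most 0.301 scaled TPM, and 0 of their 5 and 3 genes passed the filter. Astrocyte markers were present and lower in shCTCF, with a sum of 109 and 95.5 scaled TPM in shLAC and 87.0 and 72.0 in shCTCF.

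The levels followed the genome of origin. The 13 mitochondrial mRNAs had mean TPM from 560 (mt-Nd6) to 8107 (mt-Co3), all above the highest nuclear member, Cox8a, at 438. Within the nuclear members the median level per length was lowest in complexes I and II, at 47.9 and 46.4 TPM, then 85.7 in complex III, 127 in complex V and 214 in complex IV. The mitochondrial genes had a median of 1011 TPM in complex I, 7402 in complex IV and 5983 in complex V, and mt-Cytb, the only mitochondrial gene of complex III, was at 2924. The annotated genes mt-Atp8 (204 bases) and mt-Nd4l (297 bases), each of which lies on an mRNA shared with its neighbour, are shorter than the 300 bp fragments of the libraries, where length correction is least sure.

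**Figure D1:**
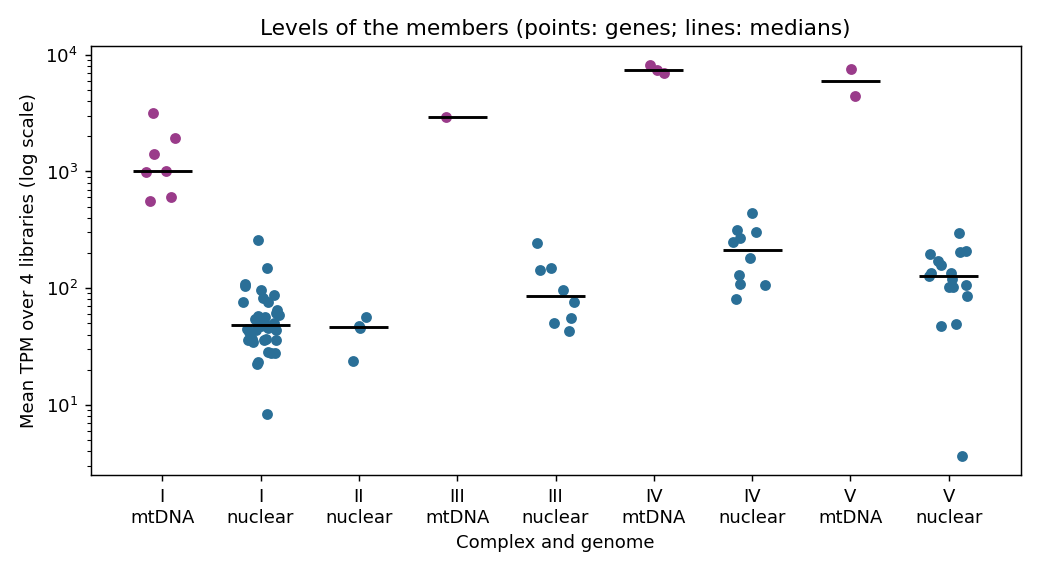
Mean TPM over the 4 libraries (y axis, log scale) of each member by complex and genome (x axis); points are genes and lines are medians. All mitochondrial points lie between 560 and 8107 TPM, above all nuclear points, which run from 3.66 (Atp5s) to 438 (Cox8a).

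Few respiratory chain genes passed the test between the groups, and those that did were lower in shCTCF, at 74.8% to 85.2% of the control mean. Of the 88 members, all of which were tested, 5 fell, 0 rose and 83 did not pass, at an adjusted p below 0.05 from limma, a linear model with a shared variance estimate. The 5 lower members made 5.68% of the members, beside 3.68% of all tested genes called lower and 2.84% called higher (410 and 317 of 11143 genes), or 6.52% in either direction. All 5 were nuclear, with 3 in complex I (Ndufb7, Ndufb10 and Ndufa12) and 2 in complex V (Atp5g2 and Atp5f1). At an unadjusted limma p below 0.05, 17 of 88 members differed, a smaller share than the 23.9% of all tested genes in either direction. All 17 were lower, but the share of all tested genes that were lower at that p was not worked out here. The direction of the 17 therefore has no background to be read against, and no result is drawn from it. Scaled log2 fold changes were negative for 61 of 88 members, with a median of -0.05, beside 50.1% of all tested genes below 0. As deposited the members' median was 0.15, close to the all-gene median of 0.17. The count also moved with the control library. Of the 75 nuclear members, 48 were negative with all libraries. Without shLAC replicate 1, 37 were negative (median 0.0008), and without shLAC replicate 2, 53 were (median -0.062). In these bulk samples, fewer cells of a type and less RNA per cell cannot be told apart.

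The count of called members depended on the fit and on single libraries. On the values as deposited, 0 members passed in either direction, beside 0.951% of all tested genes called higher and 0.449% called lower. With all biotypes in the fit, 0 of 88 members passed, beside 0.367% of genes called higher and 0.679% called lower, and limma's adjusted p for the 5 genes ran from 0.0614 to 0.104. Without shLAC replicate 1, 16 members were lower and 3 higher, beside 5.65% of all tested genes lower and 4.75% higher. Without shLAC replicate 2, 5 members were lower and 0 higher, beside 5.42% and 4.36%. Without shCTCF replicate 1, Ndufb7 alone was called, beside 2.1% of genes lower and 1.2% higher, and the same held without shCTCF replicate 2, beside 1.28% and 0.682%. The smallest exact 2-sided permutation p that 2 libraries against 2 allow is 0.333, so no single gene could pass such a test.

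**Figure D2:**
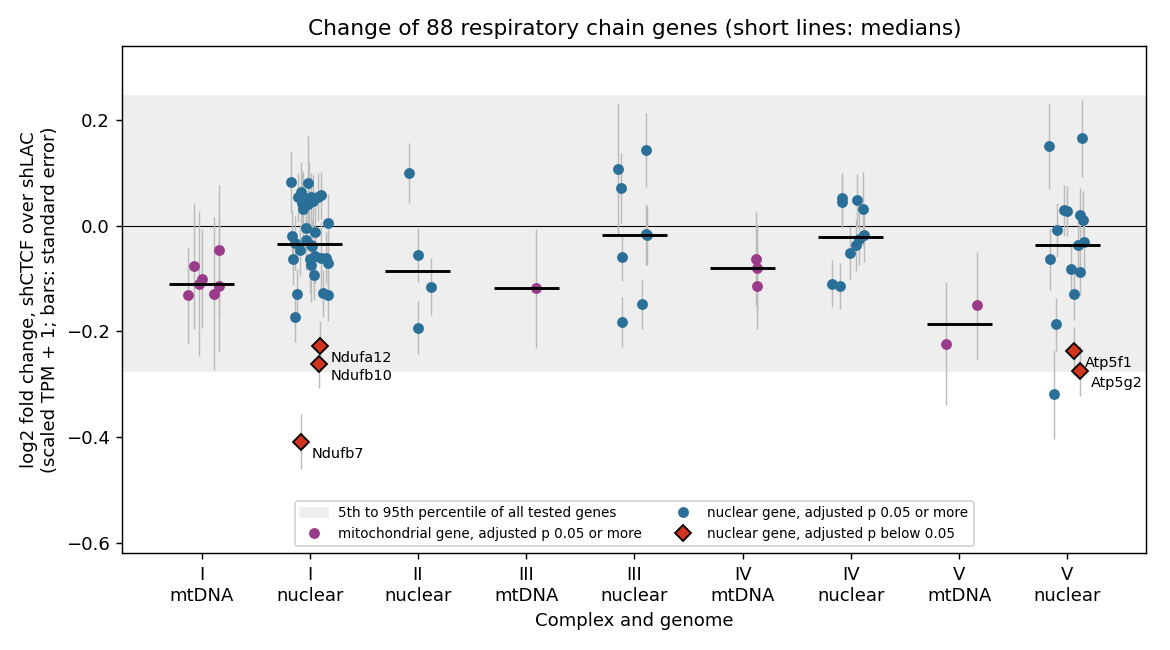
Log2 fold change of scaled TPM + 1, shCTCF over shLAC, for the 88 members (y axis) by complex and genome (x axis); points are genes with their limma standard error, short lines are medians, and the grey band spans the 5th to 95th percentile of all tested genes (-0.28 to 0.25). The 5 genes with an adjusted p below 0.05 (diamonds) lie between -0.23 and -0.41, all in nuclear complexes I and V.

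The promoter windows of the 5 lower genes are shown because these genes carried the calls. They come from RefSeq on GRCm38.p6, reach from 250 bases before to 50 after the start of transcription, and are written on the gene's strand. Capitals mark the letters of a searched motif. Ndufb7 lies at chr8:83566508-83566807 (+), Ndufb10 at chr17:24724374-24724673 (-), Ndufa12 at chr10:94198785-94199084 (+), Atp5g2 at chr15:102670998-102671297 (-) and Atp5f1, named Atp5pb in RefSeq, at chr3:105959214-105959513 (-).
Ndufb7: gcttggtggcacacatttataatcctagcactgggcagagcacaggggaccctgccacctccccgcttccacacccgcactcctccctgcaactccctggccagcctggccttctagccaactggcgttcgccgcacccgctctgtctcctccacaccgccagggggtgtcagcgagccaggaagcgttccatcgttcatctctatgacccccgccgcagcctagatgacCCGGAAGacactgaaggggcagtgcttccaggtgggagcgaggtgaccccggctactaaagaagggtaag
Ndufb10: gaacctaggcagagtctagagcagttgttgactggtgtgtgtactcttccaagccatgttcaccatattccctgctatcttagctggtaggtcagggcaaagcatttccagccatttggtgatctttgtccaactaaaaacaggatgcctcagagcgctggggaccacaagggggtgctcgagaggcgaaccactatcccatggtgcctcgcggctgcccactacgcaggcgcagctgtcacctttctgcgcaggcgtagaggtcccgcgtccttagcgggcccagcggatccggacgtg
Ndufa12: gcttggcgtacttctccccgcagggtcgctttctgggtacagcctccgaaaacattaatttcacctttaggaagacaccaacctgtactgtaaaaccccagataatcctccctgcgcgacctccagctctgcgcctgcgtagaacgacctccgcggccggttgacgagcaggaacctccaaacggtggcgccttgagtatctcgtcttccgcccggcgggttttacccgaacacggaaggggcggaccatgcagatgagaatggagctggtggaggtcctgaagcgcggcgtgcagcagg
Atp5g2: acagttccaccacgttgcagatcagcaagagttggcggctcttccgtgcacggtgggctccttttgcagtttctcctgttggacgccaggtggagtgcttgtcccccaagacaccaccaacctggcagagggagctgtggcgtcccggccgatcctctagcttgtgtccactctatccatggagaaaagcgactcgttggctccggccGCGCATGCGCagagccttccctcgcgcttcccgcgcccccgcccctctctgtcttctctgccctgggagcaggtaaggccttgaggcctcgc
Atp5f1: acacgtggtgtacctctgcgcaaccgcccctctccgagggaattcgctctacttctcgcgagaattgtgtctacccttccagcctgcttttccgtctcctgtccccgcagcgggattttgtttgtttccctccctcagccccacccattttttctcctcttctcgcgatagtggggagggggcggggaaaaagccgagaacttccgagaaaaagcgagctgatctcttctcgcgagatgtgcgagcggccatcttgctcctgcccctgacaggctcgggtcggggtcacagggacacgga

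Motifs of nuclear factors known for respiratory genes were searched on both strands, with 1 window per gene. This was the first listed, although 4163 genes had several, and bases are counted from the start that the window uses. The 10-letter NRF1 motif was in the Atp5g2 window from base -42 to base -33, where the letters read the same on both strands. It was in 16 of the 63 nuclear members that had a window (25.4%), in 11.5% of tested genes and in 4.78% of all genes. The ETS motif bound by GABPA, CCGGAAG, was in the Ndufb7 window from base -20 to base -14. It was in 15 of 63 nuclear members (23.8%), in 19.2% of tested genes and in 9.12% of all genes. The YY1 motif, ATGGCGGC, was in 6 of 63 nuclear members (9.52%), in 5.61% of tested genes and in 2.38% of all genes. A 12-letter core of the CTCF motif was in 4 of 63 nuclear members (Ndufa6, Ndufb6, Ndufv1 and Uqcrc1, 6.35%), in 2.82% of tested genes and in 2.41% of all genes. Neither the YY1 nor the CTCF letters were in the 5 windows shown, which says only that these letters are not there. No motif contains another, and a match is a description of sequence, not a binding site.

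Complex I, the NADH dehydrogenase, held the gene with the lowest log2 fold change among the called members. Ndufb7 (ENSMUSG00000033938, chromosome 8, 83566671 to 83571626, + strand, GRCm38), an accessory subunit of the membrane arm on the side of the intermembrane space, was at 53.6 and 51.0 scaled TPM in shLAC and at 40.1 and 38.3 in shCTCF. The groups did not overlap, and its mean fell by 25.2%. Such separation held for 54.8% of all tested genes. In this and the other called genes it adds no support, since the calls rest on the same values. Its log2 fold change came to -0.41 (SE 0.0515, limma adjusted p = 0.00871), and leaving out each library in turn gave a limma adjusted p of at most 0.0471.

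Ndufb10 (ENSMUSG00000040048, chromosome 17, 24722060 to 24724478, - strand), another membrane-arm accessory subunit with a cysteine-rich CHCH fold like that of Ndufb7, was at 60.6 and 59.2 scaled TPM in shLAC and at 49.1 and 50.4 in shCTCF. On the log2 scale the difference was -0.26 (SE 0.0461, limma adjusted p = 0.0250), and the groups did not overlap. Ndufa12 (ENSMUSG00000020022, chromosome 10, 94198720 to 94221443, + strand), an accessory subunit of the matrix arm, was at 86.6 and 90.5 scaled TPM in shLAC and at 75.1 and 75.9 in shCTCF. Here the log2 fold change came to -0.23 (SE 0.0472, limma adjusted p = 0.0407). Both calls were lost without either shCTCF library, with a limma adjusted p up to 0.110 for Ndufb10 and 0.168 for Ndufa12, and that of Ndufa12 also without shLAC replicate 2 (0.0559).

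The other nuclear members of complex I did not pass. Of all 36, 23 had a negative and 13 a positive log2 fold change, with a median of -0.03 and a range from -0.41 to 0.08. The 7 nuclear core subunits, which hold the flavin and the iron-sulfur clusters that carry electrons, had 0 calls and a median of -0.06. The lowest of them was Ndufv2, which binds an iron-sulfur cluster, at 58.8 and 59.4 scaled TPM in shLAC and 54.1 and 54.0 in shCTCF (log2 fold change -0.13, limma adjusted p = 0.142). The 29 nuclear accessory subunits had 3 lower calls and a median of -0.03. Among gene families, the 10 Ndufb genes summed to 615 and 588 scaled TPM in shLAC and to 563 and 561 in shCTCF. The 13 Ndufa genes summed to 980 and 962 against 952 and 982, so that their groups overlapped. The groups did not overlap for the Ndufb sum, nor for the 8 Ndufs genes, at 329 and 321 against 312 and 319. They overlapped for the sums of the Ndufc and of the Ndufv genes. Among single genes, 54.8% of all tested did not overlap, 27.2% with shCTCF below. No such share was worked out for sums. The member with the highest mean, Ndufa4, now known to sit in complex IV, had a mean of 256 TPM and a log2 fold change of 0.04 (limma adjusted p = 0.672). That with the lowest mean, Ndufa11, a membrane-arm subunit, had a mean of 8.30 TPM and a log2 fold change of 0.08 (limma adjusted p = 0.441).

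Complex V, the ATP synthase, held the other called genes. Atp5f1 (ENSMUSG00000000563, chromosome 3, 105942698 to 105960099, - strand), the b subunit of the peripheral stalk that holds the catalytic head still, was at 94.3 and 92.5 scaled TPM in shLAC and at 80.3 and 77.9 in shCTCF. The groups did not overlap and its mean fell by 15.3%. Its log2 fold change came to -0.24 (SE 0.0462, limma adjusted p = 0.0338). Leaving out shCTCF replicate 1 (limma adjusted p = 0.0987) or shCTCF replicate 2 (0.190) ended the call. Its exons overlap those of the antisense gene Wdr77 over 337 bases, and with strandedness not stated the reads there cannot be told apart. Atp5h and Atp5o, also of the stalk, did not pass, with log2 fold changes of -0.13 and -0.09 (limma adjusted p = 0.177 and 0.292), and neither did Atp5k, a small membrane subunit, at -0.19 (0.0809).

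Atp5g2 is 1 of the 3 genes, with Atp5g1 and Atp5g3, that encode the same mature c subunit of the rotating membrane ring. Atp5g2 (ENSMUSG00000062683, chromosome 15, 102662864 to 102672352, - strand) was at 54.9 and 53.6 scaled TPM in shLAC and at 43.9 and 45.4 in shCTCF (log2 fold change -0.27, SE 0.0470, limma adjusted p = 0.0227). Leaving out either shCTCF library ended this call too (0.104 and 0.0843). Atp5g3 was at 133 and 116 scaled TPM in shLAC and at 144 and 135 in shCTCF (log2 fold change 0.17, limma adjusted p = 0.228), without overlap of the groups. Atp5g1 was at 179 and 163 against 168 and 166 (log2 fold change -0.03, limma adjusted p = 0.778). The 3 genes together summed to 367 and 333 scaled TPM in shLAC and to 356 and 347 in shCTCF, so that the sum overlapped between groups. Atp5g2 gave 14.95% and 16.1% of that sum in shLAC and 12.3% and 13.1% in shCTCF, while Atp5g3 gave 36.2% and 34.9% against 40.4% and 39.0%.

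A near-identical copy limited the reading of Atp5g2. The predicted locus Gm10175, which matches its coding sequence at 95% identity or more over at least the read length of 101 bases, was at 25.9 and 30.5 scaled TPM in shLAC and at 30.2 and 26.6 in shCTCF. With Atp5g2 and Gm10175 added together, the values were 80.8 and 84.1 scaled TPM in shLAC and 74.1 and 72.0 in shCTCF. For the sum the log2 fold change came to -0.17 (SE 0.0478, limma adjusted p = 0.0869), so the call was lost and 4 members were lower. Such a copy away from the member's own locus existed for 31 of the 88 members, and 6 members had a copy with a row in the files. For 1 member, Atp5g2 (57.4%), the copies came to more than 10% of the member's own TPM. Ndufb7 and Ndufb10 had no such copy, and those of Atp5f1 and Ndufa12 had no row.

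**Figure D3:**
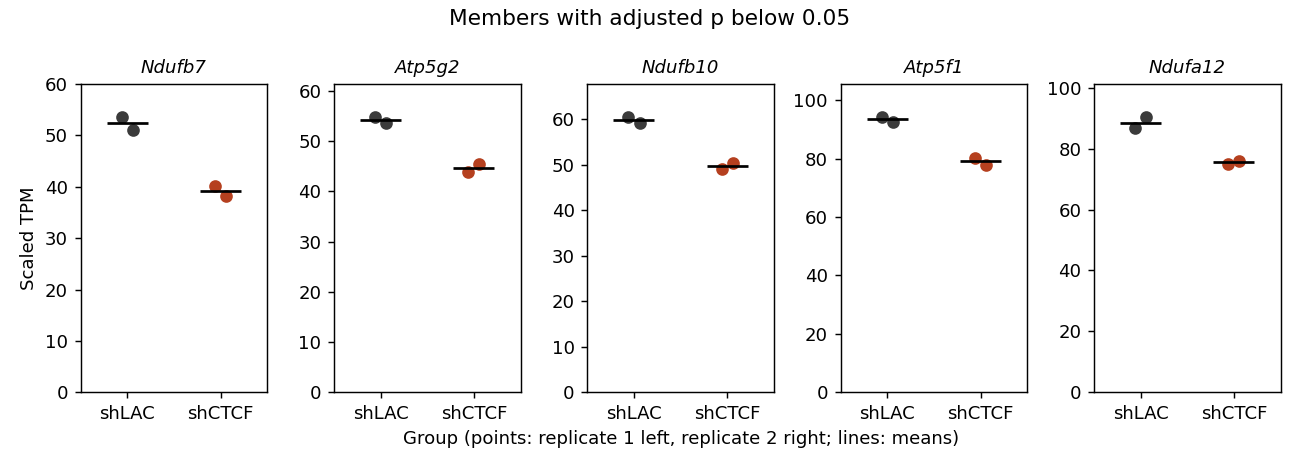
Scaled TPM (y axes, from 0) of the 5 members with a limma adjusted p below 0.05 in each library of shLAC and shCTCF; points are libraries and lines are group means. In each gene both shCTCF points lie below both shLAC points, at 74.8% of the control mean in Ndufb7 and at 85.2% in Ndufa12. The genes were picked by the test on these same points, so their separation adds no support.

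The remaining nuclear genes of complex V did not pass. Of all 17 nuclear genes there, 11 had a negative and 6 a positive log2 fold change, with a median of -0.04. The catalytic β subunit Atp5b, with the highest mean (295 TPM), was at 302 and 282 scaled TPM in shLAC and at 295 and 293 in shCTCF (log2 fold change 0.01, limma adjusted p = 0.926). Atp5s, a coupling factor and not a core subunit, had the lowest mean of all members (3.66 TPM). It was at 3.91 and 4.52 scaled TPM in shLAC and at 3.00 and 3.35 in shCTCF (log2 fold change -0.32, SE 0.0846, limma adjusted p = 0.0770). The groups did not overlap, but the difference did not pass.

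Complex II, the succinate dehydrogenase, is the complex with no mitochondrial gene, and 0 of its 4 genes passed. Sdhc, a membrane anchor, was at 25.4 and 25.2 scaled TPM in shLAC and at 21.5 and 22.5 in shCTCF (log2 fold change -0.19, limma adjusted p = 0.0722). Sdhb, the iron-sulfur subunit, had a log2 fold change of -0.12 (limma adjusted p = 0.249) and Sdha, the flavin subunit that oxidizes succinate, of 0.10 (limma adjusted p = 0.335). The groups did not overlap for any of the 4 genes, with Sdha above control and the other 3 below. For comparison, the groups did not overlap for 54.8% of all tested genes and for 41 of the 88 members (46.6%). With shCTCF below, these shares were 27.2% of all tested genes and 35.2% of the members.

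Complex III, which passes electrons from ubiquinol to cytochrome c, had 0 calls among 8 nuclear genes, 5 of them with a negative log2 fold change (median -0.02). Uqcrh, the hinge protein near cytochrome c1, was at 158 and 160 scaled TPM in shLAC and at 138 and 143 in shCTCF (log2 fold change -0.18, limma adjusted p = 0.0720). Uqcrfs1, the Rieske iron-sulfur protein, was at 43.5 and 37.6 against 44.7 and 44.8 scaled TPM (log2 fold change 0.14, limma adjusted p = 0.276). Uqcr11, with the highest mean of the nuclear genes here, had a log2 fold change of -0.02 (limma adjusted p = 0.871).

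Complex IV, cytochrome c oxidase, reduces oxygen to water, and its 10 nuclear genes had the highest nuclear median and 0 calls. Their sum was 2199 and 2139 scaled TPM in shLAC and 2135 and 2181 in shCTCF, so that the groups overlapped. Cox8a, with the highest mean, was at 455 and 404 scaled TPM in shLAC and at 428 and 449 in shCTCF (log2 fold change 0.03, limma adjusted p = 0.820). Cox6b1, which joins the monomers of the dimer, had a log2 fold change of -0.02 (limma adjusted p = 0.796). Cox7b, with the lowest mean, was at 83.2 and 83.1 scaled TPM in shLAC and at 76.8 and 76.7 in shCTCF (log2 fold change -0.11, limma adjusted p = 0.177). Its replicates lay close together and its groups did not overlap, yet it did not pass.

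The mitochondrial mRNAs encode 7 membrane subunits of complex I, cytochrome b of complex III, the catalytic core of complex IV and the a and A6L subunits of complex V. The last 2 share 1 mRNA, and the bases where their reading frames overlap are shown because reads there cannot be given to 1 gene alone. The overlap lies at chrM:7927-7969 (+ strand, GRCm38) and is 43 bases long. Capitals mark the start codon of mt-Atp6.
mt-Atp8 and mt-Atp6: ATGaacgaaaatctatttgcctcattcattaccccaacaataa

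None of the 13 mitochondrial mRNAs passed the limma test, and 0 of them had an unadjusted p below 0.05. All 13 had a negative log2 fold change after scaling, from -0.22 (mt-Atp8) to -0.05 (mt-Nd4), with a median of -0.11, beside 50.1% of all tested genes below 0. As deposited 12 of the 13 were positive, with a median of 0.09. That median was also below the 0.17 of all tested genes on the same values.

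The 2 control libraries differed from each other in their mitochondrial mRNAs. mt-Co3, the third core subunit of cytochrome oxidase, was at 8254 and 8564 scaled TPM in shLAC and at 7905 and 7633 in shCTCF (log2 fold change -0.11, limma adjusted p = 0.441), without overlap. mt-Nd6, the only one encoded on the opposite strand, was at 492 and 695 scaled TPM in shLAC and at 523 and 547 in shCTCF (log2 fold change -0.13, limma adjusted p = 0.633). Its shCTCF values lay between the 2 controls, as did those of mt-Nd2, mt-Nd4l, mt-Nd4, mt-Nd5, mt-Cytb and mt-Co1, which made 7 of the 13. mt-Atp8 was at 7358 and 9073 scaled TPM in shLAC and at 7199 and 6805 in shCTCF (log2 fold change -0.22, limma adjusted p = 0.295), and mt-Atp6 at 4224 and 5082 against 4225 and 4120 (log2 fold change -0.15, limma adjusted p = 0.412). The groups did not overlap for 3 of the 13 genes (mt-Co2, mt-Co3 and mt-Atp8, 23.1%), each lower in shCTCF, beside 27.2% of all tested genes with that order.

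The values in shLAC replicate 2 were the highest of the 4 libraries for 13 of 13 genes. Set against shLAC replicate 1, they ran from 103.8% (mt-Co3) to 141.2% (mt-Nd6), with a median of 123.3%. The shCTCF libraries lay between 95.8% and 110.3% in replicate 1 and between 92.5% and 112.8% in replicate 2. The median gap between replicates was 20.9% in shLAC for mitochondrial and 3.97% for nuclear members, and 2.79% and 2.63% in shCTCF. Without shLAC replicate 2, 5 of 13 mitochondrial genes were negative and their median log2 fold change was 0.02. Without shLAC replicate 1, 10 of the 13 were called lower, beside 5.65% of all tested genes. Replicate 2 of shLAC is the library in which predicted loci took 17.1% of TPM, and the part of that share in these values was not tested.

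**Figure D4:**
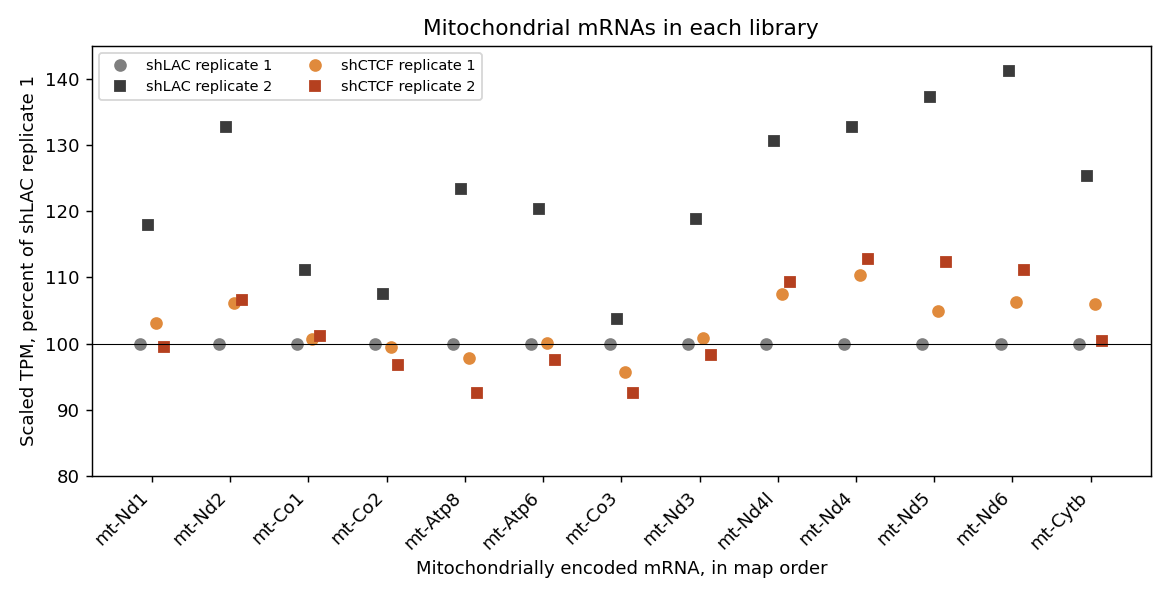
Scaled TPM of the 13 mitochondrial mRNAs as percent of shLAC replicate 1 (y axis, not from 0), in map order (x axis), 1 mark per library. The shLAC replicate 2 marks lie highest for all 13 genes (103.8% to 141.2%), while both shCTCF libraries lie between 92.5% and 112.8%.

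The ratio of mitochondrial to nuclear summed TPM was compared because it does not depend on scaling between libraries. It was 5.84 and 7.02 in shLAC (6.43 ± 0.834, SD, n = 2 libraries) and 6.11 and 5.90 in shCTCF (6.01 ± 0.152, SD, n = 2). The shCTCF values lay between the controls, so the groups overlapped, and shCTCF over shLAC was 0.934. Leaving out each library in turn gave 0.855 (without shLAC replicate 1) to 1.03 (without shLAC replicate 2), a change of side. In complex I the ratio was 4.04 and 5.23 in shLAC and 4.44 and 4.35 in shCTCF, and in complex III 3.08 and 4.05 against 3.41 and 3.23. Both shCTCF values lay between the controls there. In complex IV it was 10.1 and 11.2 against 10.3 and 9.86, and in complex V 5.01 and 6.44 against 5.18 and 4.97, so that 1 shCTCF library lay below both controls. The summed scaled TPM of the nuclear members was 7789 and 7500 in shLAC and 7456 and 7536 in shCTCF, or 98.1% of control.

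**Figure D5:**
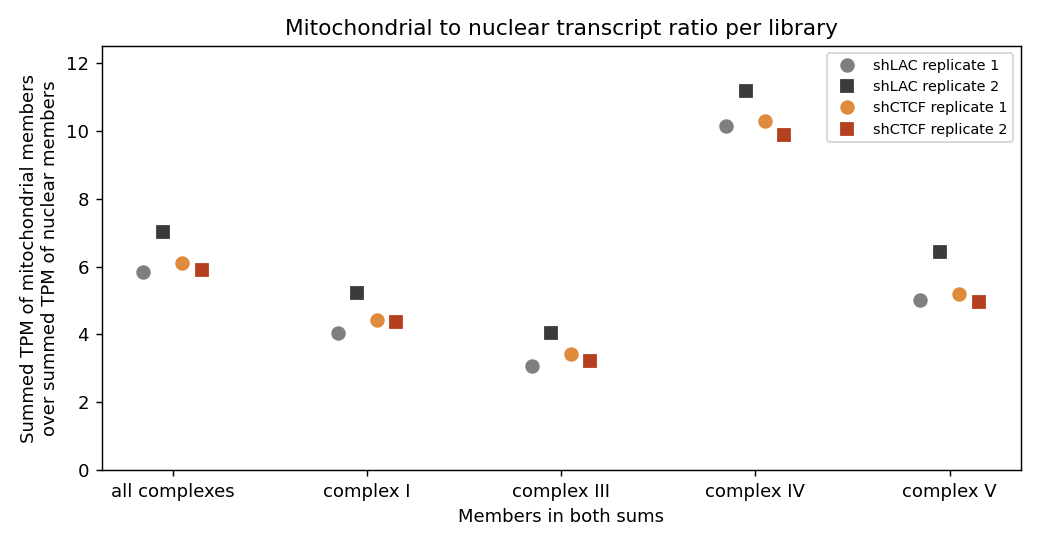
Summed TPM of mitochondrial members over that of nuclear members (y axis, from 0), for all complexes and for each complex with both kinds of gene (x axis); points are libraries. For all complexes together the shCTCF libraries (6.11 and 5.90) lie between the shLAC libraries (5.84 and 7.02).

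Genes that build and serve the chain were taken from lists beside the members. Their counts stand beside the 6.52% of all tested genes called in either direction and the 23.9% with an unadjusted p below 0.05. Of 46 tested assembly factors, 0 rose and 1 fell (median log2 fold change -0.06), namely Ndufaf3, a complex I assembly factor, at 9.26 and 8.16 scaled TPM in shLAC and 6.87 and 6.51 in shCTCF (log2 fold change -0.33, limma adjusted p = 0.0459). Of 8 tested subunits and isoforms that the name patterns leave out, 1 rose and 0 fell (median 0.01). This was Cox7a1, the heart and muscle isoform of a complex IV subunit, at 1.15 and 0.950 scaled TPM in shLAC and 2.77 and 1.91 in shCTCF (log2 fold change 0.70, limma adjusted p = 0.0298). Of 19 genes for electron carriers and coenzyme Q synthesis, 0 passed (median -0.04), with 3 at an unadjusted p below 0.05. Cytochrome c, Cycs, had a log2 fold change of -0.15 (limma adjusted p = 0.217), and Coq2, of coenzyme Q synthesis, one of -0.00 (limma adjusted p = 0.999).

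Of 23 tested genes that copy, transcribe or process mitochondrial DNA and RNA, 0 rose and 1 fell (median -0.03). Hsd17b10, a subunit of the mitochondrial RNase P, was at 13.5 and 13.1 scaled TPM in shLAC and at 11.05 and 11.03 in shCTCF (log2 fold change -0.25, limma adjusted p = 0.0433). Of 9 nuclear regulators of respiratory genes, 0 passed and 0 had an unadjusted p below 0.05 (median -0.02). Hcfc1, a coactivator, had a log2 fold change of 0.02 (limma adjusted p = 0.854) and Yy1, a zinc finger factor, of -0.02 (limma adjusted p = 0.905).

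Of 16 genes of the tricarboxylic acid cycle and pyruvate dehydrogenase, 1 rose and 1 fell (median 0.03), and both belong to pyruvate dehydrogenase. Pdha1, its E1 alpha subunit, was at 56.2 and 54.5 scaled TPM in shLAC and at 68.6 and 65.3 in shCTCF (log2 fold change 0.27, limma adjusted p = 0.0283). Dlat, its E2 subunit, was at 17.3 and 16.0 scaled TPM in shLAC and at 13.8 and 13.5 in shCTCF (log2 fold change -0.26, limma adjusted p = 0.0455). Of 14 genes for protein import and carriers, 0 passed (median -0.03), with 3 at an unadjusted p below 0.05. The ADP/ATP carrier Slc25a4 had a log2 fold change of 0.04 (limma adjusted p = 0.639) and the outer membrane channel Vdac1 one of 0.13 (limma adjusted p = 0.171).

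Markers of the cell types a cortical culture can hold were measured beside the members. Their counts stand beside 3.68% of all tested genes called lower and 2.84% called higher. Of 6 astrocyte markers, 0 rose and 2 fell, Aqp4 (log2 fold change -1.07, limma adjusted p = 0.0121) and Slc1a3 (-0.52, limma adjusted p = 0.0172). All 6 were negative with a median of -0.28, but the groups were without overlap for only 3 of them. Of 5 neuronal markers 1 rose, Rbfox3 (0.25, limma adjusted p = 0.0419), and of 3 inhibitory neuron markers 1 rose, Slc32a1 (0.36, limma adjusted p = 0.0417). The 5 excitatory markers had 0 calls and a median of 0.19, the 6 oligodendrocyte lineage markers 0 calls and a median of 0.03, and the 2 proliferation markers 0 calls and a median of 0.07. Of 3 fibroblast markers 1 was tested, Dcn, and it fell (-0.48, limma adjusted p = 0.0183). The part of these cell types in the members' values was not tested.

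The calls among the list and marker genes also depended on the fit and on single libraries. With all biotypes in the fit none of the 10 named as called passed, with limma's adjusted p from 0.0839 to 0.133, and on the values as deposited Cox7a1 and Aqp4 alone did. With no filter none of the 10 passed either, with limma's adjusted p from 0.0546 (Aqp4) to 0.124 (Ndufaf3). A constant prior kept the calls of Aqp4, Slc1a3, Cox7a1 and Dcn alone. Aqp4 and Slc1a3 passed with any 1 library left out. Cox7a1 did not pass without shCTCF replicate 1 (limma adjusted p = 0.0607), nor Dcn without shCTCF replicate 2 (0.0955). The other 6 did not pass without either shCTCF library, and Ndufaf3 (0.0697), Hsd17b10 (0.0801) and Dlat (0.0863) also not without shLAC replicate 1.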

How the data were processed

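RNA-seq of total RNA (paired reads of 101 bases, fragments of about 300 bp, per the labels' protocols) gave 4 libraries, grouped by their labels. The deposited files hold TPM per Ensembl gene. The submitters' processing notes name CASAVA, RSEM 1.2.28 and mm10. Aligner settings, strandedness and annotation release: not given in the sources used here. Precision rests on the spread between libraries, since TPM keeps no depth.

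GENCODE vM21 on GRCm38 matched 37060 of 37437 identifiers. The genes tested (11143) were protein-coding, other than predicted loci (symbols Gm and a number), and reached 1 TPM in 2 or more libraries. They were scaled by median ratios and tested on log2(scaled TPM + 1), which understates changes of low genes. The test was limma's (version 3.58.1, R 4.3.3), with a trended prior and Benjamini-Hochberg adjustment at 0.05. The members, lists and scaling were chosen with earlier results of these data known. Named are all mitochondrial members, up to 4 called nuclear members per complex (else the 2 with the highest mean), the highest and lowest by mean in each complex, and up to 3 called members of each list (else the 2 with the highest mean). Others, such as Ndufv2 and Atp5g3, were named after their values were seen. Alternatives were other scalings, gene sets, filters, pseudocounts and priors, the replicate number as a block, and leaving out 1 library at a time, with the spread of the remaining lone library assumed equal to that of the other group.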

Additional observations from a re-analysis of the deposited data

How the results depend on the processing

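The 5 lower members became 0 as deposited (106 higher and 50 lower of all tested genes), 0 with all biotypes and predicted loci kept (47 and 87), 1 with no filter (86 and 159) and 2 with a constant prior. With a mean of at least 5 TPM, 197 genes were higher and 240 lower and 5 members were lower. Leaving out each library in turn gave 0 to 3 higher and 1 to 16 lower members, 76 to 529 higher and 143 to 630 lower genes of all tested, and a mitochondrial to nuclear ratio of shCTCF over shLAC from 0.855 to 1.03. The cause of these moves was not tested. The Gm10175 sum was chosen after seeing the data.

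With the replicate number as a block, 642 genes were higher and 766 lower, and 7 members were lower, adding Sdhc (adjusted p = 0.0429) and Atp5s (0.0213) by limma. The numbers do not pair the libraries in the labels, and the differences between replicates 1 and 2 correlated between the groups at 0.25 over tested genes and -0.00 over members.

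Of 494 alternatives for single named members, 423 kept direction and side of the threshold, 27 lost and 14 gained a call and 30 reversed. As deposited the log2 fold change turned positive for mt-Nd1 (0.10), mt-Nd2 (0.085), mt-Nd3 (0.069), mt-Nd4l (0.12), mt-Nd4 (0.15), mt-Nd5 (0.090), mt-Nd6 (0.071), mt-Cytb (0.082), mt-Co1 (0.14), mt-Co2 (0.12), mt-Co3 (0.086), mt-Atp6 (0.049), Sdhb (0.081), Uqcr11 (0.18), Uqcrh (0.017), Cox6b1 (0.17) and Cox7b (0.084). Leaving out 1 library gave ranges that crossed 0 for mt-Nd1 (-0.22 to 0.018), mt-Nd2 (-0.32 to 0.089), mt-Nd4l (-0.27 to 0.12), mt-Nd4 (-0.25 to 0.16), mt-Nd5 (-0.34 to 0.12), mt-Nd6 (-0.38 to 0.12), mt-Cytb (-0.28 to 0.044), mt-Co1 (-0.14 to 0.013), Uqcr11 (-0.077 to 0.039), Cox8a (-0.054 to 0.12), Atp5b (-0.038 to 0.060) and Ndufa4 (-0.0058 to 0.093). TPM keeps no depth, so limits set by depth are unknown.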
